A study of Nicotiana benthamiana with 8 samples.

Results

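The contigs described here are those of the deposited Nicotiana benthamiana table that are annotated to xylan synthesis and to the glucuronic acid side groups of xylan. A contig was taken where an annotation held the word xylosyltransferase, glucuronosyltransferase, glucuronoxylan or xylan, or where its Arabidopsis symbol was GUT1, IRX9, IRX14-L, PGSIP1, PGSIP3, AT1G33800 or AT3G45400, and xyloglucan annotations were to be left out. The rule found 26 of 3305 contigs, and 0 were left out for xyloglucan. N. benthamiana is a tobacco relative whose leaves transiently express genes brought in by Agrobacterium. The study asked what the apple transcription factor MdMYB68 does in such leaves. Leaves of 4-week-old plants received 35S::MdMYB68 in pEarleyGate103 in one group and the empty vector p103 in the control group, and both groups also received pBINP19, which encodes the silencing suppressor p19. Each group had 4 biological replicates, and for each replicate 3 plants were pooled, with 4 leaves taken from each, 4 days after infiltration. The 35S promoter is active in most plant cells, so expression was not restricted to cells that normally make xylan-rich walls, and the share of cells that expressed it is not given in the sources used here.

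Xylan is a chain of xylose units and the main hemicellulose of the secondary walls of dicot xylem and fibres. In Arabidopsis the chain is made in the Golgi by a complex of the glycosyltransferases IRX9, IRX14 and IRX10 or its homologue IRX10-L, and single units along it are then decorated with acetyl groups and with glucuronic acid that can carry a methyl group. Leaf blades consist largely of mesophyll cells with thin primary walls, in which xylan is a minor component.

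Every contig in the table had passed cut-offs that the authors applied to these same libraries, namely 4-fold or more in RPKM, 5 RPKM or more in difference and a corrected p under 0.001. A test of a listed contig is therefore not independent evidence that it changed. Comparisons between contigs are also shaped by the cut-offs, since a rising contig with a low control level was listed only with a large fold. The libraries had 29371282 to 32279582 mapped reads with the empty vector and 31244291 to 34080202 with MdMYB68, and the listed contigs took 7.57% ± 0.851 (SD, n = 4) and 18.0% ± 0.540 (SD, n = 4) of them. Levels are given as RPKM over all mapped reads, that is reads scaled to contig length and to all reads mapped to primary or alternate contigs. The deposited RPKM used the reads of a contig's own reference set, primary or alternate, and in the median library is 1.20 times this value for a primary and 5.90 times for an alternate contig. No strand was given for the counting, and no sequences or genome positions of the contigs were used here.

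All 26 contigs were higher with MdMYB68, by 4.98-fold to 182-fold over the 22 that had more than 3 reads in the empty vector libraries (median 15.6-fold, ratio of mean RPKM). Together they took 10831 reads with the empty vector and 221613 with MdMYB68, or 87.4 ± 3.64 and 1716 ± 106 CPM over all mapped reads (SD, n = 4). With edgeR's quasi-likelihood test at an adjusted p under 0.001, 26 of 26 were called higher and 0 lower. Of all listed contigs 83.4% were called higher and 12.4% lower, so this count by itself does not set the xylan contigs apart. The levels of the 2 groups did not overlap for any of the 26, as for 85.9% of all listed contigs in this direction.

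The sizes of the changes spread widely within the set. The median log2 fold change was 4.47, with a range from 2.32 to 8.85, and was still 4.47 with the contigs without an empty vector read set to their lower bound. The median of all listed contigs was 3.34. This includes the 12.4% called lower, so it is below the median of the rising contigs alone. By role, the median was 6.31 for the xylan glucuronosyltransferases and the methyltransferase contigs were at 7.30 and 7.51, while it was 3.40 for the backbone contigs, which ran from 2.38 to 5.14, 3.31 for the xylogalacturonan-type contigs and 2.38 for those named xylosyltransferase 1 or 2. The pair of contigs named for a cyanidin glucuronosyltransferase lay high as well, at 6.46 and 8.83, and the latter value has no empty vector read behind it. With so few control reads, a contig passed the cut-off of 5 RPKM in difference only with a large fold. The rank of this pair is therefore set in part by the selection. The same holds for PGSIP3 Nbv5tr6369059 and Nbv5tr6259613, with 3 and 0 control reads. Alternative factors were computed from the listed contigs themselves, by TMM or by the DESeq2 median of ratios. They lowered the median of all listed contigs by 2.94 and 2.91, to 0.40 and 0.43. Under both, the same 6 of the 26 contigs turned negative while 20 stayed positive. Such factors assume that most contigs are unchanged, which does not hold in a table selected for change. A negative value here marks a rise smaller than that shift, not a lower level per mapped read.

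**Figure D1:**
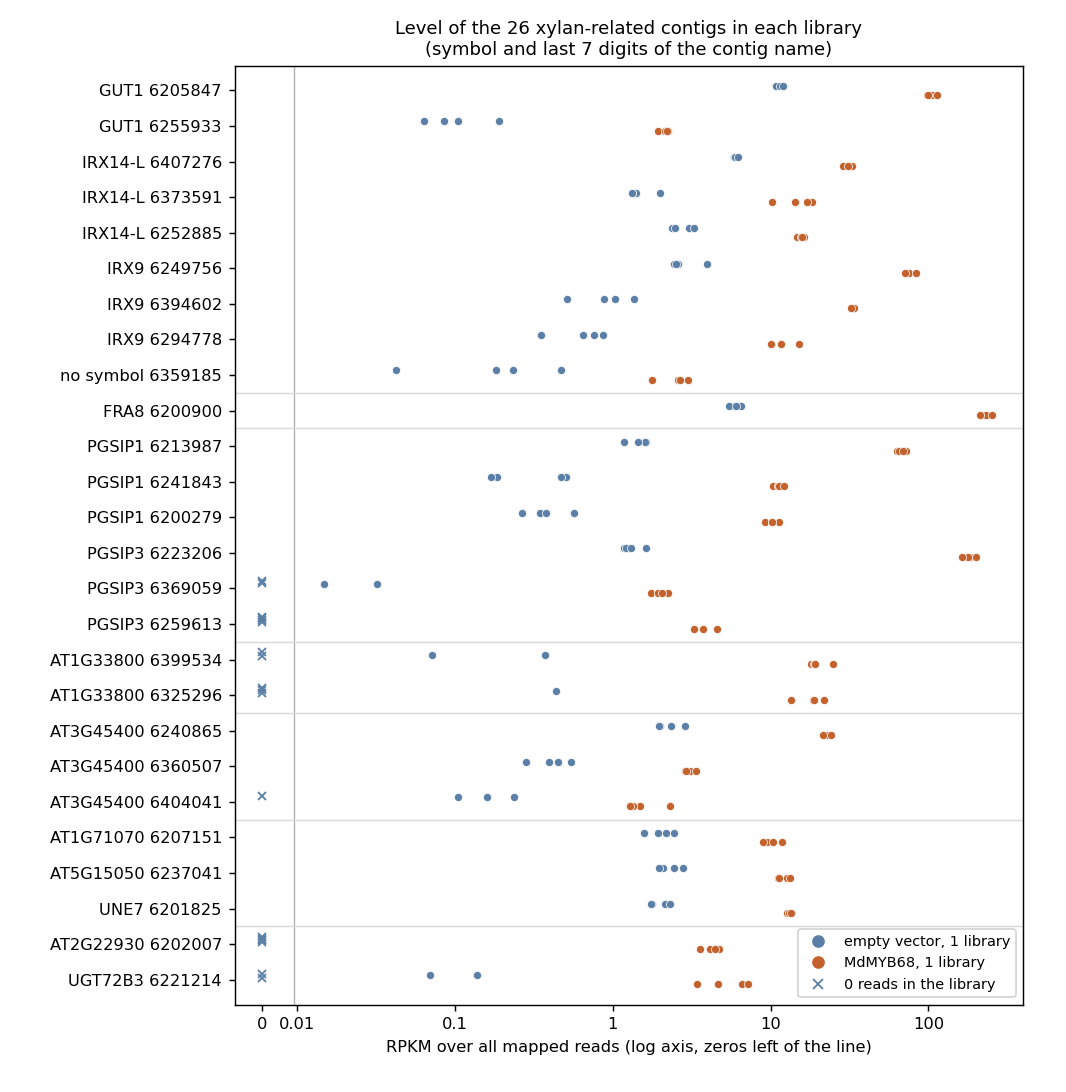
Level of each of the 26 contigs in each library, as RPKM over all mapped reads on a log axis, with crosses left of the grey line for libraries without a read and thin grey lines between roles. The MdMYB68 points lie to the right of the empty vector points in every row, although 6 rows turn negative when libraries are scaled on the listed contigs.

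How many reads can be tied to a single contig differed between the members. The set holds 12 primary and 14 alternate contigs of the transcriptome assembly. At least 90% of the reads were uniquely placed for 11 contigs, all of them primary. The share was under 5% for 10 contigs, all of them alternate, and 5 contigs had no uniquely placed read at all. With uniquely placed reads alone 21 contigs could be tested, and 18 of them were called higher, beside 80.3% of the contigs tested in that way. The calls of 3 alternate contigs were lost, for GUT1 Nbv5tr6255933 (log2 fold change 3.43, adjusted p = 0.050), PGSIP3 Nbv5tr6259613 (1.57, adjusted p = 0.38) and AT3G45400 Nbv5tr6360507 (1.57, adjusted p = 0.38). Each had 0 uniquely placed reads with the empty vector, and they had 5, 1 and 1 with MdMYB68, too few for this test to decide.

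Among the backbone enzymes, GUT1 is the symbol of Arabidopsis IRX10-L, a xylosyltransferase that elongates the chain. Its main contig, Nbv5tr6205847 (2190 bases, 99.9% of reads uniquely placed), had 11.01, 10.86, 11.45 and 11.95 RPKM in empty vector replicates 1 to 4, the highest mean level of the 26 contigs in those leaves. In the MdMYB68 libraries it had 105, 98.7, 114 and 99.8 RPKM. The groups lie far apart with a narrow spread in each, 11.3 ± 0.492 against 104 ± 7.05 RPKM (SD, n = 4), a 9.23-fold difference (log2 fold change 3.21, SE 0.11, adjusted p = 1.3e-09). The alternate GUT1 contig, Nbv5tr6255933, rose 19.3-fold, from 27 to 539 reads over the 4 libraries of a group, and a further contig without a symbol but annotated as IRX10L, Nbv5tr6359185, rose from 21 to 235 reads (log2 fold change 3.40, SE 0.45, adjusted p = 2.5e-05). Without empty vector replicate 2 the value of the latter was 4.01. The main contig held 97.8% to 98.2% of the summed GUT1 level in every MdMYB68 library.

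IRX9 is a member of the backbone complex and in Arabidopsis is needed in secondary walls. Its leading contig and its summed level changed more than those of GUT1. The leading contig, Nbv5tr6249756, had 2.45, 3.93, 2.60 and 2.51 RPKM with the empty vector, where replicate 2 stood above the other three. It had 75.2, 75.4, 83.4 and 71.0 RPKM with MdMYB68. The mean level thus went from 2.87 ± 0.708 to 76.2 ± 5.19 RPKM (SD, n = 4), 26.5-fold (log2 fold change 4.73, SE 0.18, adjusted p = 2.6e-09). Of its reads 36.4% were uniquely placed, and 19.7% and 30.9% in the other two IRX9 contigs, Nbv5tr6394602 and Nbv5tr6294778, which rose 35.2-fold and 18.5-fold. The leading contig held 62.3% to 63.0% of the summed IRX9 level in the MdMYB68 libraries and 53.7% to 76.2% in the empty vector libraries. Summed over the 3 contigs, the IRX9 level rose 27.2-fold, from 4.47 ± 0.607 to 122 ± 7.90 RPKM (SD, n = 4).

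IRX14-L is a homologue of IRX14, the third kind of backbone subunit, and had the smallest change in summed level of the backbone symbols. The contig with most reads, Nbv5tr6407276, had 5.82, 5.86, 5.97 and 6.22 RPKM with the empty vector and 28.9, 32.0, 32.7 and 30.9 RPKM with MdMYB68. Its mean rose from 5.97 ± 0.180 to 31.1 ± 1.66 RPKM (SD, n = 4), 5.22-fold (log2 fold change 2.38, SE 0.10, adjusted p = 3.9e-09), but its log2 fold change was negative, at -0.57 and -0.54, with the TMM and DESeq2 factors. Nbv5tr6373591 rose 9.94-fold, and Nbv5tr6252885 rose 5.58-fold with a value of -0.47 and -0.45 under those factors. All 3 are alternate contigs with at most 2.23% uniquely placed reads, so how the reads were split among them is uncertain. Their sum, which does not depend on the split among listed contigs, went from 10.3 ± 0.745 to 61.7 ± 4.68 RPKM (SD, n = 4), 6.01-fold. Subunits that were at similar summed levels in control leaves, GUT1 at 11.4 and IRX14-L at 10.3 RPKM, were at 107 and 61.7 RPKM with MdMYB68, where IRX9 was at 122 RPKM. Most IRX14-L and IRX9 reads were not uniquely placed, so their sums may not hold all reads of those genes.

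FRA8, also called IRX7, acts in Arabidopsis on the short sugar sequence at the reducing end of glucuronoxylan, and mutants have less xylan in their secondary walls. Its contig Nbv5tr6200900 (1765 bases) had 5.90, 6.48, 5.47 and 6.06 RPKM with the empty vector and 219, 230, 253 and 214 RPKM with MdMYB68. The highest control library and the lowest MdMYB68 library are thus more than an order of magnitude apart. The mean rose from 5.98 ± 0.418 to 229 ± 17.5 RPKM (SD, n = 4), 38.3-fold (log2 fold change 5.26, SE 0.13, adjusted p = 3.0e-10), and 100% of the reads were uniquely placed. With MdMYB68 it was the most abundant of the 26 contigs, and its lowest library, at 214 RPKM, was above the highest library of the next contig, PGSIP3, at 199 RPKM.

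PGSIP1 and PGSIP3 are also known as GUX1 and GUX2, the Golgi enzymes that add glucuronic acid to the xylan chain, in different spacing patterns in Arabidopsis. The 6 contigs with these symbols had a median log2 fold change of 6.31 (4.70 to 8.85), or 5.88 with the contig lacking empty vector reads at its lower bound, and they all stayed positive with TMM and DESeq2 factors. PGSIP3 Nbv5tr6223206 (2277 bases, 100% uniquely placed) had 1.18, 1.62, 1.21 and 1.31 RPKM with the empty vector. It had 183, 179, 199 and 164 RPKM with MdMYB68. From 12th among the 26 in mean level it became the second, with 1.33 ± 0.201 against 181 ± 14.7 RPKM (SD, n = 4), 136-fold (log2 fold change 7.09, SE 0.16, adjusted p = 2.7e-10). PGSIP1 Nbv5tr6213987 (2476 bases, 99.8% uniquely placed) started at about the same level, 1.18, 1.62, 1.61 and 1.45 RPKM. It reached 63.1, 65.1, 72.6 and 69.5 RPKM with MdMYB68, a change from 1.46 ± 0.203 to 67.6 ± 4.28 RPKM (SD, n = 4), 46.1-fold (log2 fold change 5.53, SE 0.14, adjusted p = 3.8e-10). The order of these contigs thus opened up, from levels that overlapped in control leaves to levels that did not.

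The remaining glucuronosyltransferase contigs were short or had few reads in control leaves. The PGSIP1 contigs Nbv5tr6241843 (922 bases) and Nbv5tr6200279 (992 bases) rose 33.9-fold and 26.4-fold, from 38 and 48 to 1343 and 1311 reads. PGSIP3 Nbv5tr6369059 went from 3 to 547 reads, a ratio of 175 with a 95% exact counting interval of 59.4 to 849. Its fitted log2 fold change moved from 7.23 to 8.19 without empty vector replicate 1, which held 2 of those 3 reads. PGSIP3 Nbv5tr6259613 (491 bases) had 0 reads with the empty vector and 236 with MdMYB68, at least 75.3-fold higher with 3 reads taken as the floor for the control group. Such intervals and floors cover counting error only.

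AT1G33800 is annotated as glucuronoxylan 4-O-methyltransferase, the enzyme that methylates the glucuronic acid groups once they are on the chain. Both of its contigs were close to undetected in control leaves and had no uniquely placed read. Nbv5tr6399534 had 3, 0, 16 and 0 reads in the empty vector libraries and 813, 918, 1111 and 880 in the MdMYB68 libraries, a rise from 0.111 ± 0.177 to 20.2 ± 3.17 RPKM (SD, n = 4), 182-fold (log2 fold change 7.51, SE 0.65, adjusted p = 1.0e-06). Nbv5tr6325296 had all of its 18 control reads in empty vector replicate 2, and 547, 954, 746 and 776 reads with MdMYB68 (log2 fold change 7.30, SE 0.79, adjusted p = 5.4e-06). The size of these folds rests on single control libraries, since the log2 fold change became 9.65 without empty vector replicate 3 for the former and 12.52 without empty vector replicate 2 for the latter. The summed level of both contigs is less sensitive to where a read was placed, and it went from 0.221 ± 0.217 to 38.4 ± 5.18 RPKM (SD, n = 4). This is a lower level than that of either PGSIP main contig, whose reads were at least 99.8% uniquely placed. With no uniquely placed read, the AT1G33800 sum may not hold all reads of the gene.

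**Figure D2:**
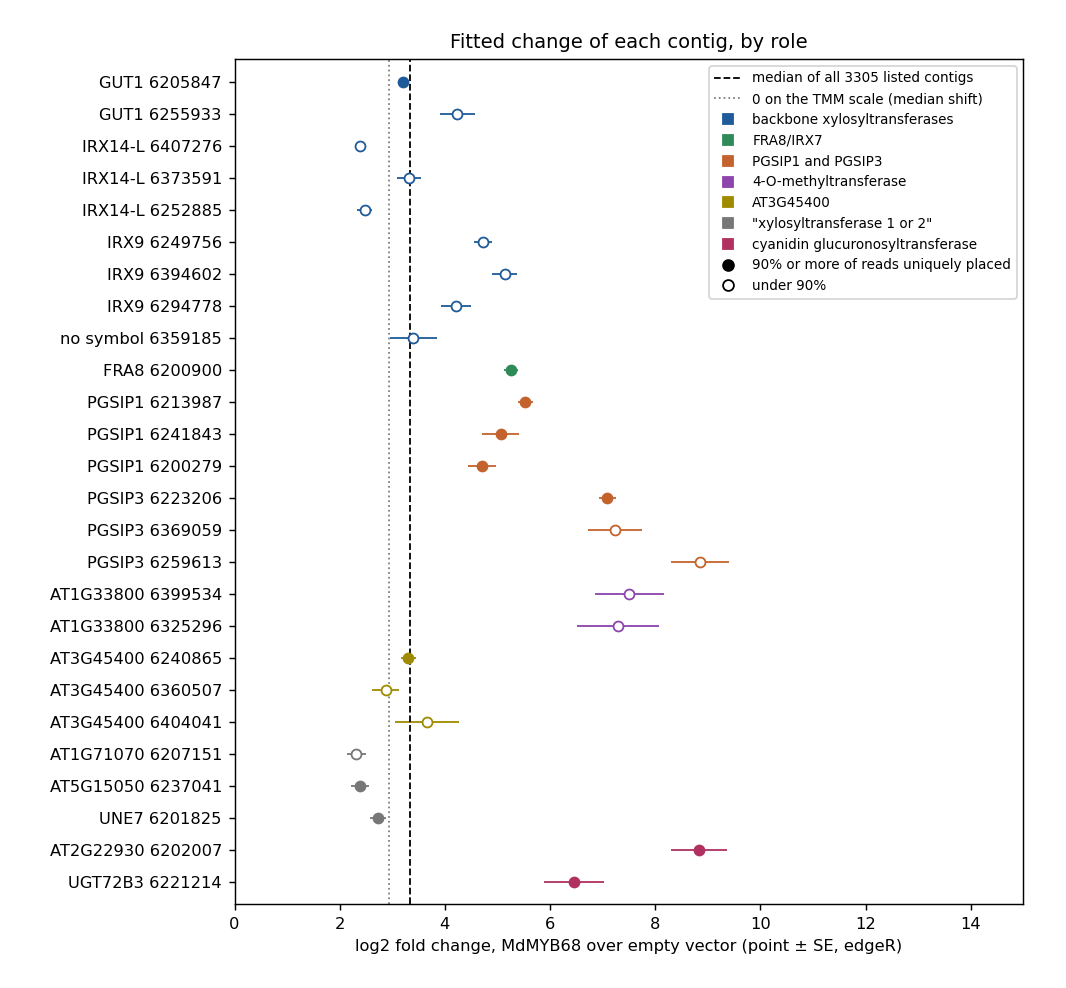
Fitted log2 fold change of each contig, with its SE, coloured by role and filled where at least 90% of the reads were uniquely placed. The PGSIP3 and AT1G33800 contigs lie above 7 and the IRX14-L and xylosyltransferase 1 or 2 contigs below the median of all listed contigs at 3.34 (dashed), where 6 contigs turn negative with TMM factors (dotted line at the shift of 2.94).

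The rule also brought in contigs that may act on other polymers. AT3G45400 contigs are annotated as xylogalacturonan xylosyltransferase, which would act on a pectin, or as an exostosin family or arabinosyltransferase protein. Nbv5tr6240865 had 2.00, 2.88, 2.32 and 1.95 RPKM with the empty vector and 22.50, 22.76, 23.98 and 21.64 RPKM with MdMYB68, a 9.92-fold rise (log2 fold change 3.31, SE 0.15, adjusted p = 8.3e-09). The alternate AT3G45400 contigs rose 7.35-fold (Nbv5tr6360507, with values of -0.072 and -0.047 under the TMM and DESeq2 factors) and 12.8-fold (Nbv5tr6404041). Their values rest on 125 and 37 control reads.

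AT1G71070, AT5G15050 and UNE7 carry the name xylosyltransferase 1 or 2, which comes from animal enzymes of proteoglycan synthesis. The Arabidopsis protein AT5G15050 is a glucuronosyltransferase of arabinogalactan proteins. These 3 contigs had small changes for the set, 4.98-fold for AT1G71070 Nbv5tr6207151, 5.21-fold for AT5G15050 Nbv5tr6237041 and 6.63-fold for UNE7 Nbv5tr6201825, and each turned negative under both TMM and DESeq2 factors, at -0.63 and -0.61, -0.57 and -0.55, and -0.22 and -0.20. UNE7 had 1.76, 2.15, 1.75 and 2.32 RPKM with the empty vector and 12.8, 13.5, 13.1 and 13.4 RPKM with MdMYB68. AT1G71070 ran from 1.57 to 2.45 and from 8.996 to 11.74 RPKM, and AT5G15050 from 1.95 to 2.79 and from 11.1 to 13.3 RPKM. In all 3 the groups were well separated at low levels.

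A pair of short contigs matched only through the name cyanidin-3-O-glucoside 2-O-glucuronosyltransferase, which denotes an enzyme of flower pigment decoration rather than of the wall. AT2G22930 Nbv5tr6202007 (426 bases) had 0 reads with the empty vector and 232 with MdMYB68, at least 74.1-fold higher, at 4.22 ± 0.498 RPKM (SD, n = 4). UGT72B3 Nbv5tr6221214 (452 bases) had 3 and 318 reads, a ratio of 102 with a 95% exact counting interval of 34.4 to 495, and its log2 fold change moved from 6.46 to 7.38 without empty vector replicate 4.

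Summed by role, the backbone share of the set fell, while the PGSIP and FRA8 shares rose. The 9 backbone contigs had 26.4 ± 0.728 RPKM with the empty vector and 292 ± 17.8 with MdMYB68 (SD, n = 4), while the 6 PGSIP contigs went from 3.53 ± 0.442 to 276 ± 17.0 RPKM, 78.3-fold. The backbone share of the summed level of all 26 contigs was between 55.9% and 60.1% in the 4 control libraries and between 31.3% and 32.7% in the 4 MdMYB68 libraries. The PGSIP share went from between 6.89% and 8.51% to between 30.2% and 30.7%, and the FRA8 share from between 11.9% and 13.9% to between 24.8% and 25.7%. These shares are taken inside a library and do not use its total. Over all 26 contigs the summed level rose 20.0-fold, from 45.4 ± 1.99 to 909 ± 56.6 RPKM (SD, n = 4). The backbone symbols differed in this, since summed IRX9 rose more, 27.2-fold, and GUT1 and IRX14-L less, 9.33-fold and 6.01-fold.

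**Figure D3:**
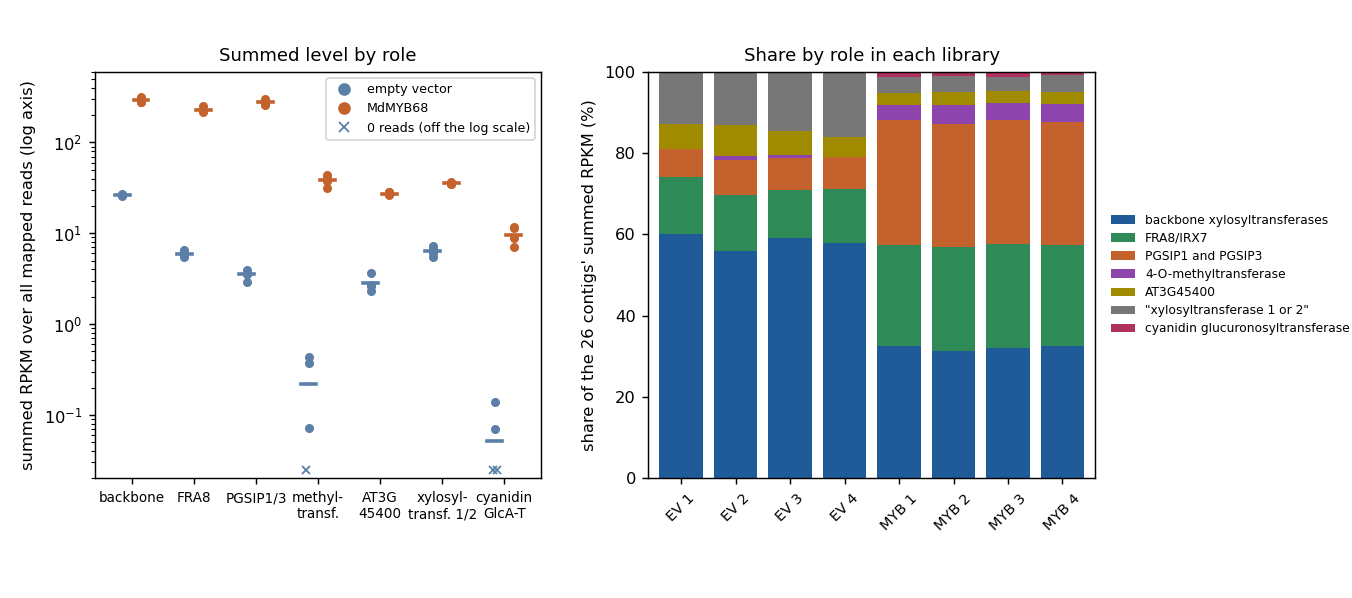
Left, summed RPKM over all mapped reads of the contigs of each role in each library on a log axis, with bars at the group means and crosses for libraries without a read. Right, the share of each role in the summed RPKM of all 26 contigs in each library (EV, empty vector, and MYB, MdMYB68, replicates 1 to 4), where the backbone share is 55.9% to 60.1% in the control libraries and 31.3% to 32.7% with MdMYB68.

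Ratios of the leading contigs inside each library gave a comparison that needs no library size. They were computed for 5 pairs, chosen with earlier results of these data known, so the p-values are not independent evidence. The test was a two-sided exact permutation test, whose smallest p is 0.029 with 4 libraries in each group. Benjamini-Hochberg adjustment was over the 5. The ratio of IRX9 to GUT1 in reads per kilobase was 0.223, 0.363, 0.228 and 0.211 with the empty vector and 0.714, 0.764, 0.731 and 0.712 with MdMYB68. The mean ratio thus rose 2.92-fold (difference in log2 ratio 1.55, SE 0.18, exact permutation p = 0.029, adjusted 0.036), and every MdMYB68 library was above every control library. IRX9 to IRX14-L rose 5.17-fold, from 0.473 to 2.45 (difference in log2 ratio 2.37, SE 0.18, exact permutation p = 0.029, adjusted 0.036). These leading contigs of the backbone symbols thus did not change by a common factor. For the subunits this is less certain, since 36.4% of the reads of the IRX9 contig and 2.23% of those of the IRX14-L contig were uniquely placed. Another IRX14-L contig, Nbv5tr6373591, rose 9.94-fold, beside 9.23-fold for the GUT1 contig.

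The leading PGSIP3 and PGSIP1 contigs also changed by different factors, as did those of PGSIP1 and GUT1. PGSIP3 was about as abundant as PGSIP1 in control leaves, at ratios of 0.999, 1.00, 0.754 and 0.901, and exceeded it with MdMYB68, at 2.90, 2.74, 2.75 and 2.36. The ratio rose 2.95-fold (difference in log2 ratio 1.56, SE 0.12, exact permutation p = 0.029, adjusted 0.036). PGSIP1 to GUT1 rose 5.02-fold, from 0.129 to 0.647 (difference in log2 ratio 2.33, SE 0.11, exact permutation p = 0.029, adjusted 0.036). For AT1G33800 to PGSIP3 the difference in log2 ratio was 1.74 with an SE of 1.33 (exact permutation p = 0.31), because the control ratios, resting on 19 reads of AT1G33800, ran from 0.00673 to 0.315 and enclosed the MdMYB68 ratios of 0.0982 to 0.125.

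**Figure D4:**
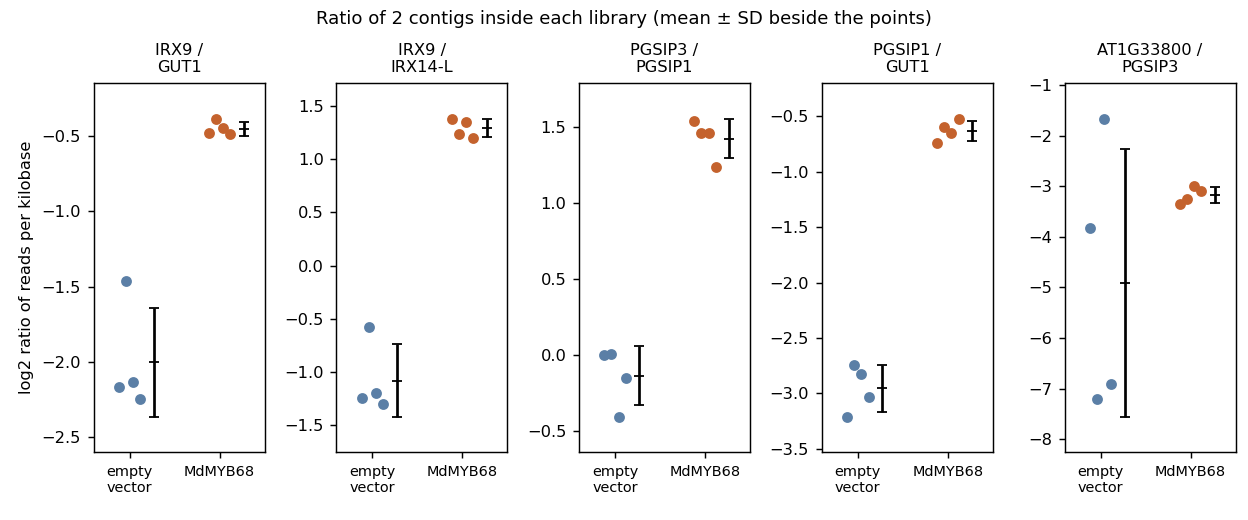
Log2 ratio of reads per kilobase of the leading contigs of 2 symbols inside each library, 1 point per library, with the mean and SD of the group beside them. In the first 4 panels the groups do not overlap, and in AT1G33800 to PGSIP3 the control libraries spread around the MdMYB68 libraries.

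Other genes of xylan synthesis were looked up by symbols and names outside the rule, in lists chosen with earlier results of these data known. IRX15-L (AT5G67210), which affects xylan chain length in Arabidopsis, had 2 contigs, and both were called higher, beside the 83.4% of all listed contigs. Its main contig Nbv5tr6204438 had 90, 149, 107 and 115 reads with the empty vector and 17814, 18488, 19911 and 18525 with MdMYB68 (log2 fold change 7.28, SE 0.18, adjusted p = 3.0e-10). At 389 ± 27.5 RPKM (SD, n = 4) it was more abundant with MdMYB68 than any of the 26 contigs. IRX8, PARVUS and F8H, named with it in the list, had no listed contig, which gives no level for them since unlisted contigs were not analysed here.

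The acetylation list, with the wall O-acetyltransferase family of ESK1 and the TBL proteins and the RWA proteins that supply acetyl groups, had 33 contigs. All 33 were called higher, as were 83.4% of all listed contigs, with a median log2 fold change of 5.70 (2.09 to 11.25), although 3 of them, all AT2G34410, turned negative with TMM factors. ESK1, also known as TBL29, is the main xylan acetyltransferase of Arabidopsis stems, and its 5 contigs ranged from 5.53 to 7.25. TBL33 had 8 contigs between 3.29 and 6.97, and AT2G34410, an RWA gene, had 7 between 2.09 and 3.74. The contig with most reads was TBL34 Nbv5tr6228213, another xylan acetyltransferase, with 19, 9, 2 and 15 reads in the control libraries and 27664, 29114, 30713 and 28024 with MdMYB68 (log2 fold change 11.25, SE 0.39, adjusted p = 1.5e-09). Only 8 of the 33 contigs had at least 90% of their reads uniquely placed, and not all TBL proteins act on xylan.

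The lists for sugar supply and regulators were each represented by a single symbol. UXS6 (Nbv5tr6220703), which makes the UDP-xylose that the backbone enzymes use, rose from 2.74 ± 0.401 to 39.3 ± 3.40 RPKM (SD, n = 4), with a log2 fold change of 3.84 (SE 0.14, adjusted p = 2.4e-09). Among the symbols of the list for regulators of secondary wall formation, which does not hold every known regulator, KNAT7 alone had contigs in the table, and its 3 contigs were called higher, as were 83.4% of all listed contigs. KNAT7 is known in Arabidopsis stems mainly as a repressor of secondary wall thickening. Its main contig Nbv5tr6230773 had 7.501, 9.473, 9.042 and 10.61 RPKM with the empty vector and 58.5, 63.3, 70.2 and 67.0 with MdMYB68 (log2 fold change 2.82, SE 0.13, adjusted p = 1.1e-08), but this contig and another KNAT7 contig turned negative with TMM factors. The lists for xylosidases, for the cellulose synthases of secondary walls and for markers of tracheary elements had 0 contigs in the table. This gives no level or change for those genes, since unlisted contigs were not analysed here.

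**Figure D5:**
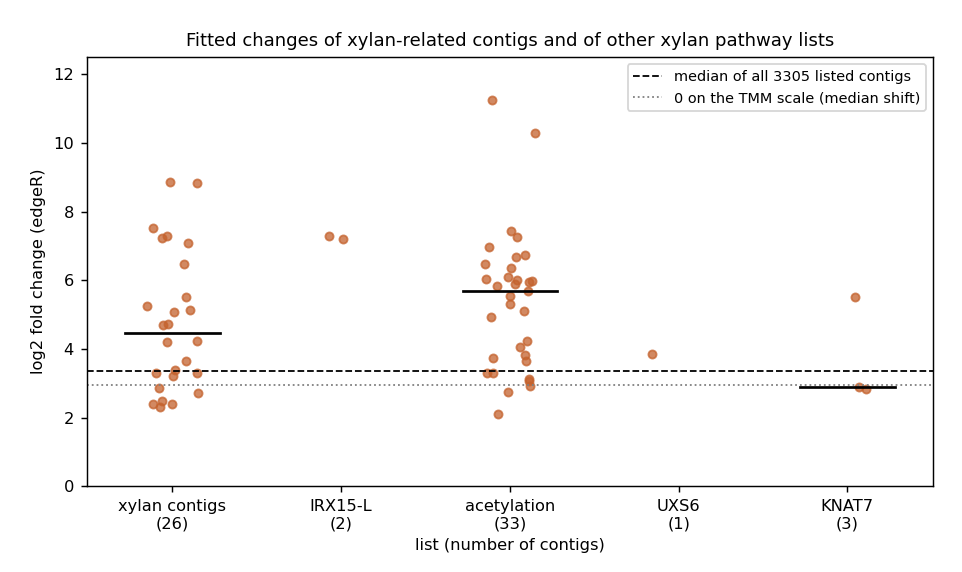
Fitted log2 fold change of each contig of the 26 xylan-related contigs and of the lists around them, with list medians as bars where there are more than 2 contigs. The acetylation contigs have a median of 5.70 beside 4.47 for the xylan-related contigs and 3.34 for all listed contigs (dashed), and contigs under the dotted line at 2.94 turn negative with TMM factors.

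The listed markers of leaf mesophyll moved the opposite way. The table holds 64 contigs annotated to photosystems, chlorophyll a-b binding proteins or the small subunit of RuBisCO, of which 63 were called lower and 0 higher, where 12.4% of all listed contigs were called lower and 83.4% higher. Their median log2 fold change was -2.05 (-3.01 to -1.96). This lies close to the authors' 4-fold cut-off, so its size and the count called lower are set in part by the selection. Unlisted contigs of this kind were not analysed here. Their summed level ran from 37033 to 53730 RPKM with the empty vector and from 8472 to 13182 RPKM with MdMYB68, and 1 of the contigs had no read in some library. The one with most reads, the RuBisCO small subunit contig Nbv5tr6235988 (AT5G38410), had 5239, 7788, 6035 and 4774 RPKM in control leaves and 1862, 1122, 1118 and 1398 RPKM with MdMYB68. In pooled whole leaves, fewer cells of a type and less RNA per cell cannot be told apart, and the part of this shift in the xylan results was not tested.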

How the data were processed

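RNA of 8 leaf samples was sequenced as paired-end reads. The authors trimmed the reads, mapped them in CLC Genomics Workbench to both contig sets, primary and alternate, of an N. benthamiana transcriptome, and deposited total gene reads and uniquely placed reads as raw counts, with RPKM per reference set. The table also holds the authors' means, fold changes and p-values of Baggerly's test, which were not used. The number of libraries whose columns were left unused was 0.

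Mapped reads per library were recovered from counts, contig length and deposited RPKM. Counts were fitted with edgeR 4.0.16 in R 4.3.3 (quasi-likelihood test, no covariates, normalization factors of 1), with Benjamini-Hochberg adjustment over the 3305 contigs and calls under 0.001. The SE is the log2 fold change over the root of F and can be under the counting error for few reads. The fits were also run on simulated counts in which most contigs were unchanged. That setting is unlike this table, so the run does not bear on the calls given here. Ratios had 0.5 read added to each contig. Python 3.11.15, numpy 2.4.6, scipy 1.17.1, pandas 2.3.3 and matplotlib 3.10.9 were used.

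Every contig found is named or counted, with full statistics for the one with most reads within each symbol of a role, and other genes come from lists of symbols and keywords. The contigs, lists and ratio pairs were chosen with earlier results of these data known. Alternatives were uniquely placed reads, TMM or DESeq2 1.42.0 factors, DESeq2 on library totals, totals of a contig's reference set, a mean of at least 10 reads, limma 3.58.1 on log2 RPKM with 1 or 0.1 added, calls under 0.05, the replicate number as a block, and the omission of single libraries. Totals without the listed contigs and reads summed by symbol were added after seeing the data.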

Additional observations from a re-analysis of the deposited data

Results flagged for a closer look

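In 62 groups of 4 values, levels of a contig or log2 ratios in a group, the gap between an extreme library and its neighbour was compared with Dixon's 95% critical value, and 6 groups exceeded it, where chance gives about 1 in 20. IRX9 Nbv5tr6249756 was at 3.93 RPKM in empty vector replicate 2, above the other control libraries, and the same library stood out in the log2 ratio of IRX9 to GUT1, at -1.46, and of IRX9 to IRX14-L, at -0.58. The IRX14-L contig Nbv5tr6373591 was at 1.98 RPKM in empty vector replicate 3. AT1G33800 Nbv5tr6325296 was at 0.439 RPKM in empty vector replicate 2 and had no read in the other control libraries. AT1G33800 Nbv5tr6399534 was at 24.9 RPKM in MdMYB68 replicate 3, the highest of its group.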

How the results depend on the processing

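The count of 26 xylan contigs called higher was reached again with DESeq2 on library totals, totals of the own reference set, a mean of at least 10 reads, limma on log2(RPKM + 1), a threshold of 0.05, library totals without the listed contigs and each left-out library, and was 25 with limma on log2(RPKM + 0.1). With factors from the listed contigs it was 12 (TMM) and 15 (DESeq2), while the calls over the whole table went from 2757 to 964 and 1227. Summed by symbol, 14 of 14 units were called. The median log2 fold change of 4.47 became 1.53 with TMM, 1.56 with DESeq2 factors, 3.12 with limma on log2(RPKM + 1) and 4.64 with totals without listed contigs, and ran from 4.45 to 4.65 when single libraries were left out. Negative values with TMM and DESeq2 factors were -0.57 and -0.54 for IRX14-L Nbv5tr6407276, -0.47 and -0.45 for IRX14-L Nbv5tr6252885, -0.072 and -0.047 for AT3G45400 Nbv5tr6360507, -0.63 and -0.61 for AT1G71070, -0.57 and -0.55 for AT5G15050, and -0.22 and -0.20 for UNE7, where these factors lowered the median of all listed contigs by 2.94 and 2.91. Contigs with under 100 control reads, 11 of the 26, have the least certain folds.

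The replicate numbers did not pair the libraries, since the deviations of libraries with the same number correlated at -0.02, -0.01, -0.01 and -0.02, and a number's best match was another number. With the replicate block edgeR called 22 of the 26 contigs and 2294 of all contigs higher. The differences in log2 ratio under the block were 1.55 for IRX9 to GUT1, 2.37 for IRX9 to IRX14-L, 1.56 for PGSIP3 to PGSIP1 and 2.33 for PGSIP1 to GUT1, each with an exact permutation p of 0.125, the smallest that 4 pairs allow. Leaving out single libraries gave 1.47 to 1.73, 2.30 to 2.54, 1.47 to 1.62 and 2.24 to 2.40 for these, with an exact permutation p of 0.057, the smallest that 3 against 4 libraries allow.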
